A study of Mus musculus with 30 samples.

Results

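The genes described here are the cytochrome P450 genes of families 1, 2 and 3 in mouse duodenum and liver. They were taken as every gene whose symbol in the deposited table is Cyp, a family number of 1, 2 or 3, a subfamily letter and a gene number, with at least 50 reads summed over the 30 libraries. Of 47069 genes in the table, 58 symbols fitted the pattern and 46 had enough reads: 3 genes of family 1, 38 of family 2 and 5 of family 3. The largest subfamilies were Cyp2c with 15 members, Cyp2d with 7 and Cyp3a with 5. Just inside the count minimum was Cyp2g1 with 72 reads in all, and just outside was Cyp2w1 with 43.

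Cytochrome P450 enzymes are haem proteins of the endoplasmic reticulum that insert an oxygen atom into their substrates, using electrons passed on by the reductase Por. Families 1 to 3 handle most drugs and other foreign chemicals and also oxidise steroids, fatty acids, bile acids and vitamin D. The liver holds most of them, the enterocytes of the upper intestine are the other main site, and many of the genes are switched on through the aryl hydrocarbon receptor Ahr and the nuclear receptors Nr1i2 (PXR) and Nr1i3 (CAR).

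The mice were C57BL/6 and ate a diet with fructose, a diet with dextrose (glucose) or a control diet with corn starch. Poly(A) RNA of duodenum and of liver was sequenced, giving 6 groups of 5 libraries. The labels give no age, no sex and no length of feeding, and are silent on whether the libraries of a group are different animals, and p-values here therefore describe variation among these libraries, which may be technical. In bulk tissue, fewer cells of a type and less RNA per cell cannot be told apart.

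Libraries held 14530137 to 19850935 reads, so that 1 read is worth 0.0504 to 0.0688 CPM (reads of a gene scaled to a common library size) before scaling. In all, 5 libraries stood apart from their groups. In duodenum control 5 all 8 hepatocyte genes examined were above the other 4 controls, with a sum of 195 CPM against at most 5.24 in every other duodenum library, and all 6 cell cycle genes were highest of the group. Pancreatic acinar genes summed to 127 CPM in duodenum control 3, where all 8 were highest of the group, and to 52.3 CPM in duodenum fructose 3, where 7 of 8 were. In liver control 2 and liver dextrose 5 all 6 cell cycle genes were highest of the group, with sums of 131 and 144 CPM against 3.90 to 7.71 in the other 13 liver libraries. Results are given with these libraries, and without them where that ends or adds a call. Enterocyte genes summed to 20726 CPM or more in every duodenum library, and hepatocyte genes to 66145 CPM or more in every liver library.

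Several members are near copies of each other. Over their transcripts, a median of 8.60% of 50-base windows also occurred in another Cyp gene; 16 of the 46 members shared at least 20% and 15 shared under 1%. Cyp2c40 shared the most, 60.3%. How such reads were assigned is not given in the sources used here. Levels of single genes with a high share are therefore uncertain. Among those that the results turn on, Cyp3a44 shared 26.5% of its windows. The largest part, 11.5%, was with Cyp3a41a, a gene with 7 reads over all libraries. Cyp3a44 also shared 10.6% with Cyp3a63-ps and 6.95% with Cyp3a11. In control duodenum Cyp3a11 was far more abundant, at 261 FPKM (authors' values scaled by gene length and library size) against 4.01 for Cyp3a44. Cyp2a4 shared 36.1% with Cyp2a5. Cyp2u1, Cyp2j9, Cyp3a13, Cyp2c44 and Cyp2c70 shared 0.

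The sequences upstream of 2 pairs of paralogs are printed because the members of each pair differed in the data that follow. Cyp3a44 rose on both sugars in duodenum while Cyp3a11 passed no test there with all libraries. Cyp2a4 was high in 2 liver libraries in which Cyp2a5 was within the range of its group. Each line is the 250 bases before the annotated start of transcription in RefSeq, build GRCm38.p6, 5′ to 3′ on the strand of the gene. Capitals mark bases that differ from the partner or face a gap when the pair is aligned. Cyp3a44 lies on the minus strand at chr5:145805875-145806124 and Cyp3a11 on the minus strand at chr5:145879855-145880104, with 190 of 265 aligned columns identical, or 71.7%. Cyp2a4 lies on the plus strand at chr7:26306942-26307191 and Cyp2a5 on the plus strand at chr7:26835089-26835338, with 245 of 251 columns identical, or 97.6%.
Cyp3a44: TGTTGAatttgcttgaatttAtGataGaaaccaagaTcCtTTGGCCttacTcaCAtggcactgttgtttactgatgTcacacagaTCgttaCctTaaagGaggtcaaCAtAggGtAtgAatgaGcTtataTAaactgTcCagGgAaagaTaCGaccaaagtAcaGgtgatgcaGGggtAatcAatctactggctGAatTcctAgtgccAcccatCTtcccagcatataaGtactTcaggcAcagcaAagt
Cyp3a11: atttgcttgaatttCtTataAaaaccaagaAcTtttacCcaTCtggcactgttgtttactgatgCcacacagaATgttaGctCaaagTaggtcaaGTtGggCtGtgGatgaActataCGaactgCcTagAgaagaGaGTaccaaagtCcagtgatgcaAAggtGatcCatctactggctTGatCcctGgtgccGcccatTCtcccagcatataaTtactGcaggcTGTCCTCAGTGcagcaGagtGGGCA
Cyp2a4: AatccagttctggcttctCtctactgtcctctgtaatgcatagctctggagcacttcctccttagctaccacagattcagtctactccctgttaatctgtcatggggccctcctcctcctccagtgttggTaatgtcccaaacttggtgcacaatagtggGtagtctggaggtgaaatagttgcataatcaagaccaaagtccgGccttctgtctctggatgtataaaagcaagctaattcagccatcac
Cyp2a5: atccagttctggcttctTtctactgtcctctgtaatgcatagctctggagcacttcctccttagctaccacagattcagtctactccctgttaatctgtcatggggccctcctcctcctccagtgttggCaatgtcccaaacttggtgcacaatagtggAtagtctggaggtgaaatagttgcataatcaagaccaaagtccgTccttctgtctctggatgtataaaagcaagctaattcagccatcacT

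Such windows were held for 40 of the 46 members (250 bases before to 50 after the start) and were searched on both strands for 5 short motifs. The TATA box letters TATAAA were found in 25 of the 40, against 13.6% of all 32851 RefSeq windows of the same length. The nuclear receptor element AGGTCA was found in 14 of the 40, against 16.3% of all windows, and CAAAGTCCA, a form of the site of the liver and gut factor HNF4, in 7 of the 40, against 0.475%. The 7 were Cyp2c40, Cyp2c65, Cyp2c67, Cyp2c68, Cyp2c69, Cyp2c70 and Cyp3a11, most of them close paralogs. In Cyp3a11 it begins 109 bases before the start, and it was not found in the window of Cyp3a44; both windows hold AGGTCA, at 162 and 150 bases before the start. The Ahr core GCGTG was found in 6 of the 40, against 32.4% of all windows, and CACGTG in 1, against 7.15%. A match is a description of the letters and not of a bound site.

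On the control diet the 2 tissues used largely different members. Summed per length, as the authors' FPKM (fragments scaled by gene length and library size), the 46 members made 0.892% ± 0.168 of all FPKM in liver and 0.281% ± 0.0290 in duodenum (SD, n = 5). Liver was led by Cyp2e1, the oxidase of ethanol and acetone, at 2344 ± 882 FPKM (SD, n = 5), which was 32.4% of the members' summed FPKM. Next came Cyp2f2 at 567 ± 155, Cyp2d9 at 552 ± 308, Cyp3a11 at 484 ± 584, Cyp2d26 at 465 ± 73.6 and Cyp2c70 at 431 ± 125 FPKM. Their ranges over libraries overlapped. That of Cyp2e1, 933 to 3112, overlapped the others only with Cyp3a11. The highest Cyp3a11 value, 1526 FPKM, was in control 2, one of the libraries that stood apart. There it had 3180 CPM, against 494 to 713 in the other 4 controls. The place of Cyp3a11 in this order and its overlap with Cyp2e1 rest on that library. Duodenum was led by Cyp3a13, a Cyp3a enzyme of the gut, at 583 ± 117 FPKM, then Cyp2d26 at 369 ± 25.8, Cyp3a25 at 273 ± 44.9, Cyp3a11 at 261 ± 53.4, Cyp2c65 at 164 ± 25.1 and Cyp2b10 at 125 ± 28.7. Over the 5 libraries, Cyp3a13 did not overlap Cyp2d26, and Cyp3a11 did not overlap Cyp2c65, whereas the ranges of the other neighbours in this order overlapped. The subfamily Cyp3a made 53.1% ± 2.23 of the members' FPKM in duodenum and a median of 6.40% in liver, where the library range was 4.93% to 34.1%.

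**Figure D1:**
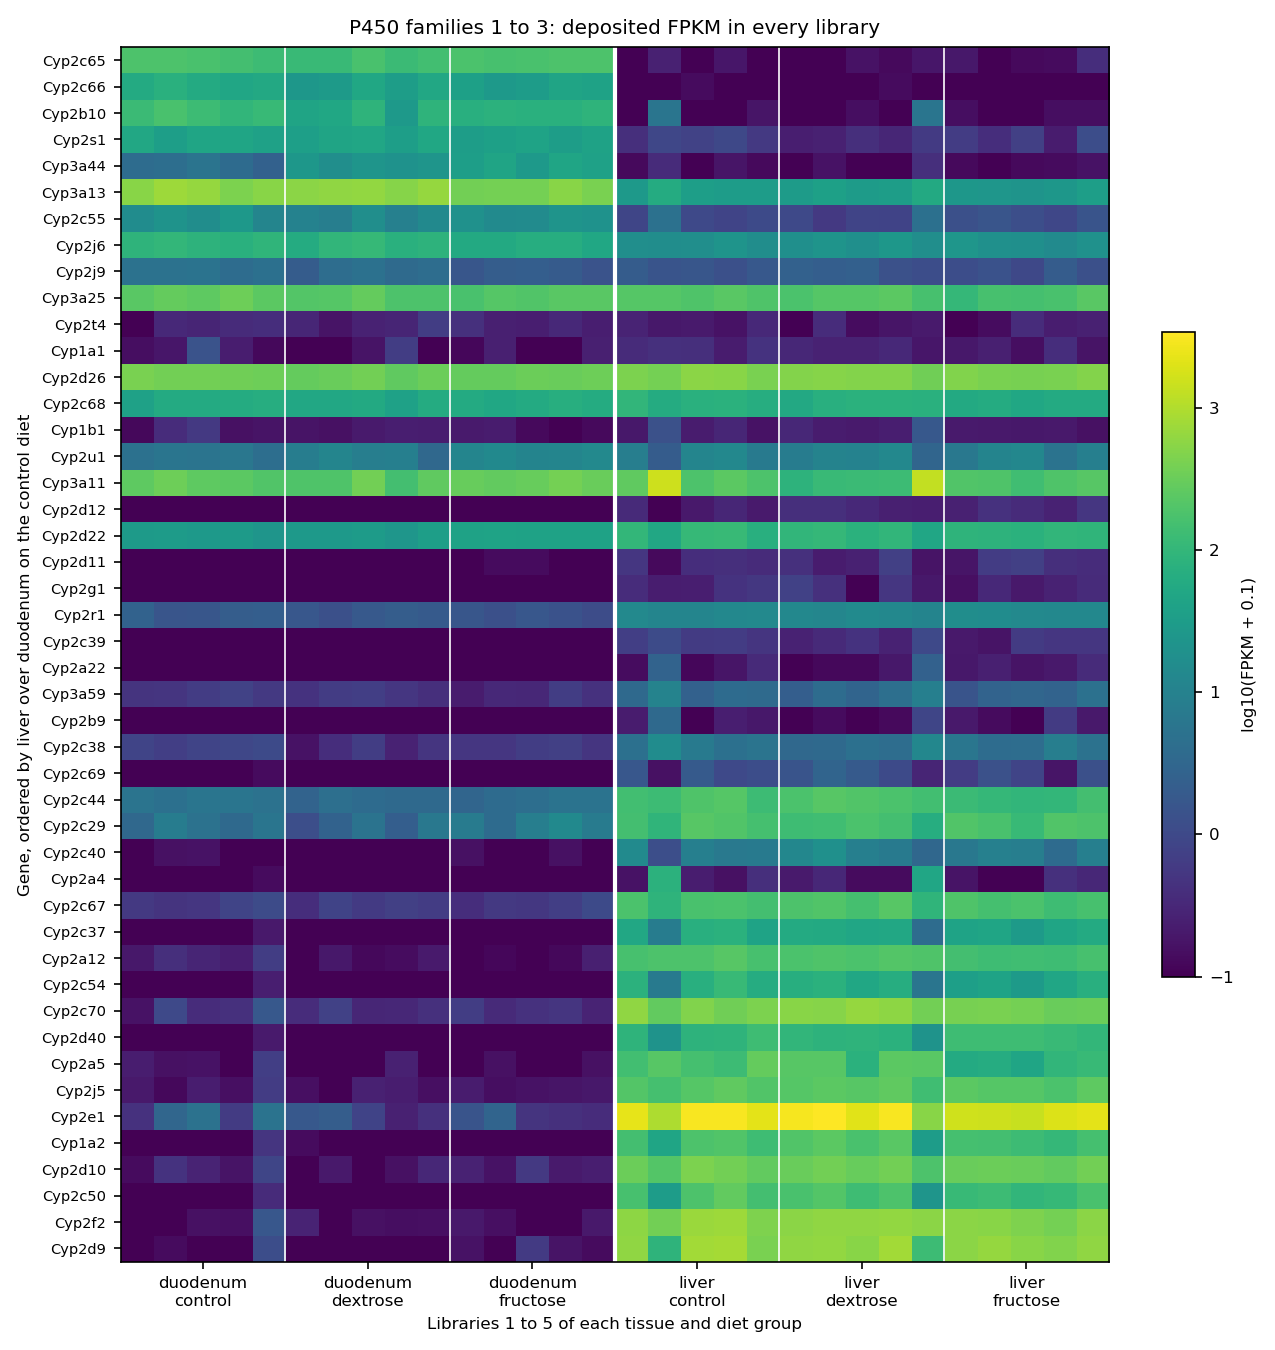
Deposited FPKM of all 46 genes in each of the 30 libraries, as log10 of FPKM plus 0.1 (color scale), with genes ordered by the ratio of liver to duodenum on the control diet. Genes at the top, such as Cyp2c65 and Cyp2c66, are high in the 15 duodenum libraries, genes at the bottom, such as Cyp2d9 and Cyp2f2, in the 15 liver libraries, and liver control 2 and dextrose 5 appear as columns that break the pattern.

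Between the tissues, 35 of the 39 members tested passed an adjusted p of 0.05 (edgeR), 26 higher in liver and 9 higher in duodenum; of all 15268 genes tested, 74.6% passed, 37.3% in each direction. Those higher in duodenum were Cyp2c65, Cyp2c66, Cyp2c55, Cyp2b10, Cyp2s1, Cyp3a44, Cyp3a13, Cyp2j6 and Cyp2j9. Largest in the liver direction were Cyp2c50, Cyp2d40, Cyp2d9, a testosterone 16-alpha hydroxylase, Cyp2c54, Cyp2c37 and Cyp1a2, which oxidises caffeine and aromatic amines, with log2 fold changes of 11.14 to 11.95. These 6 were near 0 in duodenum, and their highest duodenum levels were in control 5, the library with hepatocyte transcripts; with 1 control library left out at a time their log2 fold changes ran from 10.81 to 15.62. In the duodenum direction the largest were Cyp2c66 at -12.18 ± 0.42 and Cyp2c65 at -11.26 ± 0.41 (log2 ± SE). Both were near 0 in control liver, at means of 0.00673 and 0.0492 FPKM, so the size of these values is uncertain. With 1 control library left out at a time they ran from -13.59 to -11.88 and from -12.28 to -10.97, beyond the SE. Cyp3a11, Cyp3a25, Cyp1a1 and Cyp1b1 did not pass. Cyp3a25, for example, was at 273 FPKM in duodenum and 212 ± 19.1 in liver. Without the libraries that stood apart 36 of 40 members passed, 27 higher in liver and 9 higher in duodenum. Of all 15537 genes in that fit 72.0% passed.

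The Cyp2c genes of chromosome 19 showed this split along the chromosome. In RefSeq order the first 3 of the 15, Cyp2c55, Cyp2c65 and Cyp2c66, had 18.3, 164 and 59.5 FPKM in control duodenum and 1.62, 0.0492 and 0.00673 in control liver. The next gene, Cyp2c29, had 5.08 FPKM in duodenum and 167 in liver. Of the 12 genes that follow the first 3, Cyp2c68 was the most even, at 56.8 FPKM in duodenum and 75.0 in liver, though it too passed the test (log2 fold change 0.73 ± 0.16); it shares 43.3% of its windows with other Cyp genes. Near the far end Cyp2c70, which makes mouse muricholic acids, had 0.652 FPKM in duodenum and 431 in liver. The last gene in the order, Cyp2c44, had 5.31 FPKM in duodenum and 164 in liver.

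In duodenum, fructose raised 3 members and lowered 2 against the control diet, and dextrose raised 1 and lowered 1. Cyp3a44 rose on both sugars, Cyp2u1 and Cyp2d22 on fructose, and Cyp2j9 and Cyp2j6 fell on fructose, the latter with a call that was lost when some libraries were left out. Of the 23 members tested with fructose, 5 passed (edgeR, adjusted p under 0.05), against 6.71% of all 13884 genes, 4.01% higher and 2.70% lower. With dextrose 2 of 23 passed, against 2.25% of all genes, 1.15% higher and 1.09% lower. Between the sugars 4 of 23 passed, 3 higher and 1 lower on fructose, against 3.64% of all genes, 2.17% higher and 1.48% lower; with upper-quartile scaling the split was 2 higher and 2 lower, since the call of Cyp2c65 was lost and another gene was called lower. The median log2 fold change of the 23 was -0.24 for fructose against control, -0.22 for dextrose against control and 0.09 for fructose against dextrose, and that of all genes tested lay between -0.02 and -0.01. Of 7 enterocyte genes 3 were lower and 1 higher on fructose, and 2 lower and 1 higher on dextrose, with list medians of 0.01 in both. Their summed level was 25882 to 30267 CPM on control, 21840 to 26895 on dextrose and 20726 to 30272 on fructose. The part of these in the P450 values was not tested. Both sugars were compared with the same 5 control libraries, so the 2 comparisons with control are not independent. Without the libraries that stood apart, 3, 1 and 3 of 23 passed in the same order, against 2.32%, 1.15% and 1.93% of all genes. The other 23 members were too low in duodenum to be tested.

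**Figure D2:**
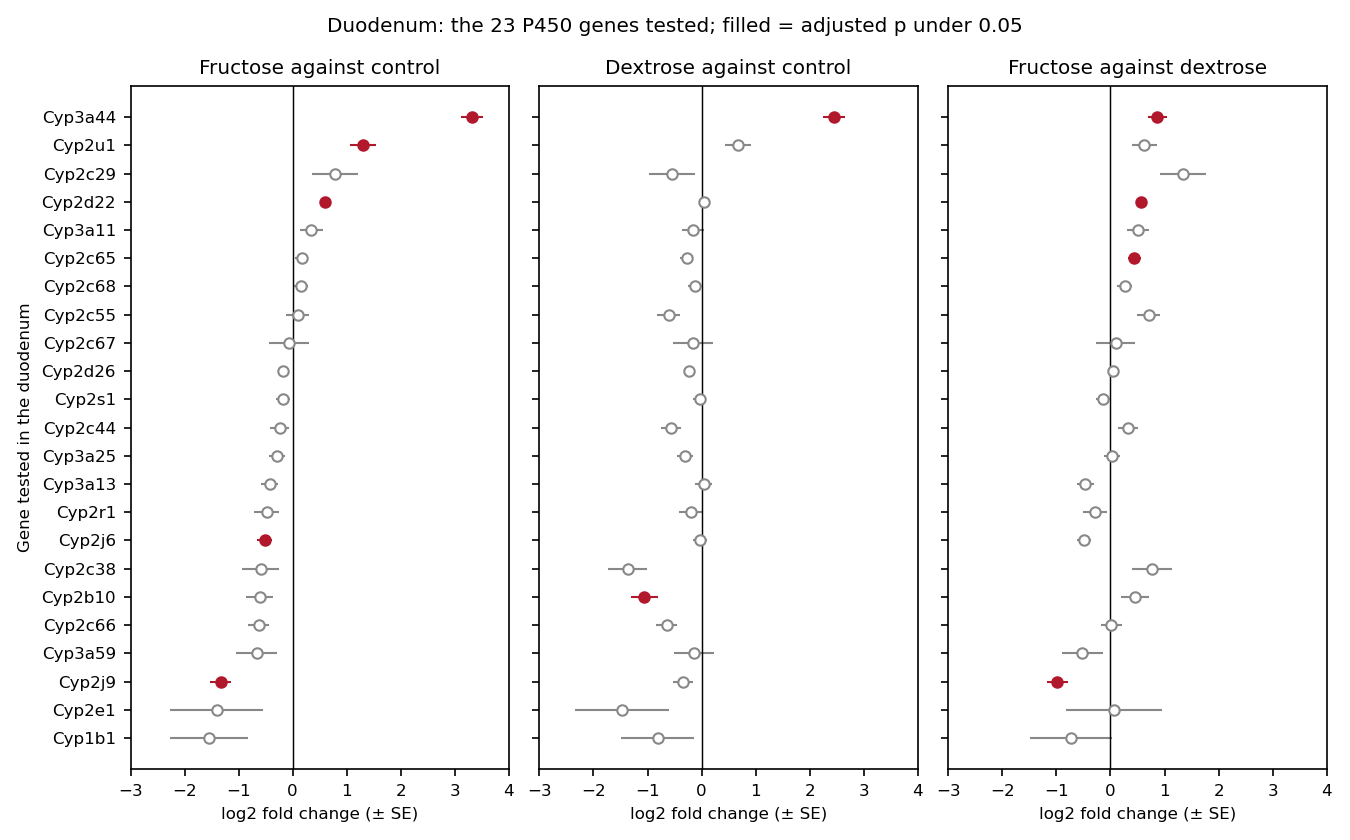
Log2 fold change with its standard error (horizontal axis) for the 23 genes tested in duodenum (vertical axis, in the order of fructose against control), in 3 comparisons of 5 against 5 libraries. Filled points have an adjusted p under 0.05 by edgeR: 5, 2 and 4 genes from left to right, with Cyp3a44 filled in all 3 panels.

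Cyp3a44 belongs to the steroid- and drug-oxidising subfamily Cyp3a. In control duodenum it had 7.80, 8.39, 10.8, 7.03 and 4.70 CPM (scaled by TMM, as are all CPM values of single genes here). On dextrose it had 50.3, 35.7, 42.9, 39.9 and 43.4 CPM, and on fructose 65.0, 89.2, 52.9, 98.7 and 81.6 CPM. Every library on either sugar was above every control, and every fructose library above every dextrose library. The log2 fold change was 3.32 ± 0.20 for fructose against control (9.98-fold, edgeR adjusted p = 3.55e-08) and 2.45 ± 0.20 for dextrose against control (5.47-fold, adjusted p = 1.10e-05). Fructose exceeded dextrose by 0.87 ± 0.18 (1.83-fold, adjusted p = 0.0109). All 3 calls held with each library left out in turn and without the libraries that stood apart.

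The other Cyp3a genes did not pass in duodenum with all libraries. Cyp3a11, the main inducible Cyp3a enzyme of mouse liver, had 666, 884, 662, 601 and 492 CPM on control, 504, 503, 920.3, 377 and 658 on dextrose and 746, 716, 775, 1104 and 862 on fructose. Its 3 groups overlapped, with a log2 fold change of 0.35 ± 0.21 for fructose against control (adjusted p = 0.388) and 0.50 ± 0.21 for fructose against dextrose (adjusted p = 0.227). Cyp3a13 had 1584, 2179, 1925, 1240.0 and 1554 CPM on control, 1706, 1847, 1803, 1497 and 1855 on dextrose, and 1032, 1134, 1129, 1724 and 1297 on fructose. Of the fructose libraries 4 of 5 were below every dextrose library, and the log2 fold change was -0.46 ± 0.15 against dextrose (adjusted p = 0.108) and -0.43 ± 0.15 against control (adjusted p = 0.111). It passed against control in 2 of 10 fits with 1 library left out, without fructose 4 (adjusted p = 0.0234) or without control 4, and against dextrose without fructose 4 (adjusted p = 0.0236). Cyp3a11 passed between the sugars without dextrose 3 (adjusted p = 0.0363). Cyp3a25 and Cyp3a59 had log2 fold changes of -0.29 ± 0.14 and -0.66 ± 0.38 for fructose against control (adjusted p of 0.288 and 0.360).

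Among enzymes of fatty acids, Cyp2u1, a hydroxylase of long-chain fatty acids, had 12.6, 14.8, 14.2, 15.6 and 10.8 CPM on control, 22.7, 31.7, 22.3, 23.3 and 8.39 on dextrose, and 29.1, 37.3, 29.7, 33.3 and 38.2 on fructose. All fructose libraries were above all controls; 4 of the dextrose libraries were above the controls and 1 was below them. The log2 fold change was 1.30 ± 0.24 for fructose against control (adjusted p = 0.00266), and 0.67 ± 0.24 for dextrose against control (adjusted p = 0.210). Without the libraries that stood apart, the fructose value was 1.26 ± 0.31 with an adjusted p of 0.0540.

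The 2 Cyp2j genes tested went the other way on fructose. Cyp2j9 had 11.3, 11.2, 12.1, 8.61 and 10.1 CPM on control, 4.75, 9.59, 10.8, 7.96 and 9.01 on dextrose, and 3.42, 4.79, 4.92, 4.76 and 3.34 on fructose. The fructose libraries were all below the controls, and dextrose 1 was the single dextrose library within the fructose range. It fell by 1.33 ± 0.19 on the log2 scale for fructose against control (adjusted p = 3.30e-04) and by 0.99 ± 0.19 for fructose against dextrose (adjusted p = 0.00668). Cyp2j6, the more abundant of the 2, had 319, 356, 309.8, 255 and 319 CPM on control, 225, 362, 372, 273 and 293 on dextrose, and 196, 203, 236, 263 and 189 on fructose. The highest fructose library lay just above the lowest control. It fell by 0.52 ± 0.14 on the log2 scale against control (adjusted p = 0.0265), a call that was lost without the libraries that stood apart (adjusted p = 0.157) and in 7 of 10 fits with 1 library left out. Against dextrose its log2 fold change was -0.49 ± 0.14 (adjusted p = 0.0550). The third member, Cyp2j5, was under the filter in duodenum.

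**Figure D3:**
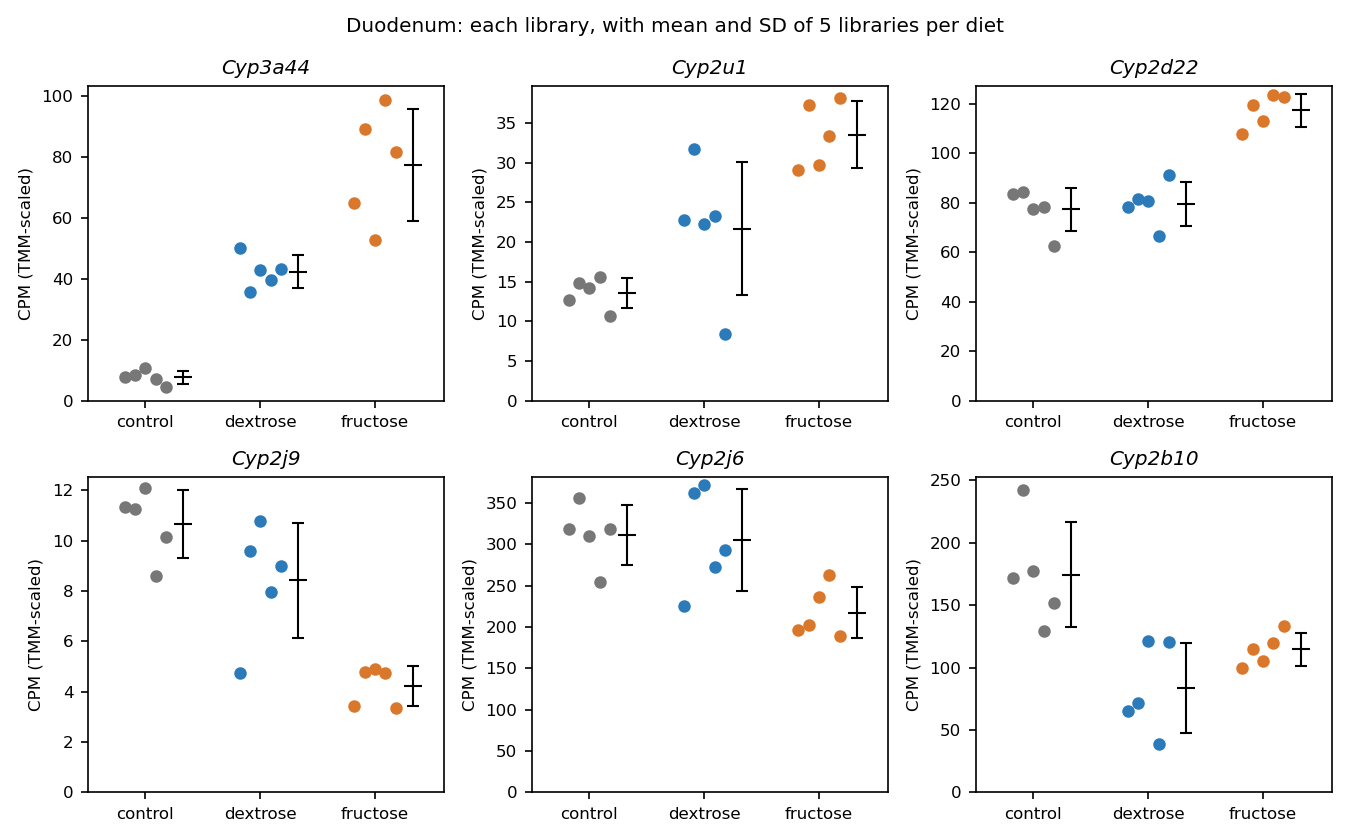
TMM-scaled CPM (vertical axes from 0) of the 6 genes called against the control diet, in each duodenum library by diet; bars give the mean and SD of 5 libraries. Cyp3a44 runs from 4.70 to 10.8 on control, 35.7 to 50.3 on dextrose and 52.9 to 98.7 on fructose, while Cyp2j9 is lowest on fructose, at 3.34 to 4.92.

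Cyp2d22, a Cyp2d enzyme of drugs and amines, was higher on fructose than on either other diet. It had 83.6, 84.5, 77.6, 78.3 and 62.7 CPM on control, 78.1, 81.4, 80.8, 66.6 and 91.2 on dextrose, and 108, 119, 113, 124 and 122.9 on fructose. The fructose libraries were above all others. The rise was 0.60 ± 0.09 in log2 against control (1.52-fold, adjusted p = 6.99e-04) and 0.56 ± 0.09 against dextrose (adjusted p = 0.00204), and both calls held without the libraries that stood apart. The more abundant Cyp2d26 changed by -0.17 ± 0.10 against control (adjusted p = 0.345).

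Cyp2b10 is the classical target of Nr1i3. It had 172, 242, 178, 129 and 152 CPM on control, 65.5, 71.8, 122, 39.2 and 120.2 on dextrose, and 99.4, 115, 105, 120.1 and 133 on fructose. All dextrose libraries were below all controls, and the log2 fold change of -1.06 ± 0.25 passed (adjusted p = 0.0381). The call was lost without the libraries that stood apart (-1.12 ± 0.31, adjusted p = 0.161) and in 6 of 10 fits with 1 library left out. On fructose the log2 fold change was -0.61 ± 0.25 (adjusted p = 0.188).

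Of the gut Cyp2c genes, Cyp2c65 passed between the sugars. It had 358, 361, 329, 271 and 242 CPM on control, 237, 239, 316, 234 and 268 on dextrose, and 327, 325, 333, 394 and 375 on fructose. All fructose libraries were above all dextrose libraries, with the controls across both, and the log2 fold change was 0.44 ± 0.12 (adjusted p = 0.0492). The call was lost without the libraries that stood apart (adjusted p = 0.0801), in 9 of 10 fits with 1 library left out and under 4 of the other settings tried. Cyp2c66, of which 19.5% of windows are shared with Cyp2c65, had -0.63 ± 0.20 for fructose against control (adjusted p = 0.0658) and -0.65 ± 0.20 for dextrose against control (adjusted p = 0.116). Cyp2c55 had 0.71 ± 0.22 for fructose against dextrose (adjusted p = 0.0882), and Cyp2c38 -1.36 ± 0.36 for dextrose against control (adjusted p = 0.0595).

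Family 1 was scarce in duodenum. Cyp1a1, the enzyme most closely tied to Ahr, had 15 to 70 reads summed over 5 libraries in each duodenum group, and 57 of the 70 control reads came from control 3. Cyp1b1 had a log2 fold change of -1.55 ± 0.72 for fructose against control (adjusted p = 0.248). Cyp2s1, an enzyme of epithelia outside the liver, was at 44.0 ± 6.95 FPKM on control and 37.2 ± 4.30 on fructose, with a log2 fold change of -0.18 ± 0.12 (adjusted p = 0.473). Cyp2r1, the vitamin D 25-hydroxylase, was at 1.95 ± 0.47 FPKM on control and 1.34 ± 0.24 on fructose (log2 fold change -0.48 ± 0.23, adjusted p = 0.264).

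Genes that work with or beside the P450s were read from 4 lists. Of 5 electron donors and partners, Por fell on both sugars in duodenum and the other 4 did not pass. Of all genes 1.09% fell on dextrose and 2.70% on fructose. Por had 397, 320.3, 338, 308 and 393 CPM on control, 174, 194, 235, 163 and 187 on dextrose, and 229, 272, 298, 258 and 289 on fructose. The 3 groups overlapped in no library except for dextrose 3, which was above fructose 1. Its log2 fold change was -0.88 ± 0.11 for dextrose (adjusted p = 2.58e-04), -0.38 ± 0.11 for fructose (adjusted p = 0.0433) and 0.50 ± 0.11 for fructose against dextrose (adjusted p = 0.0149). Without the libraries that stood apart, the dextrose value remained past the threshold (adjusted p = 0.00420) and the other 2 did not.

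Of 12 other targets of the same receptors, 10 were tested in duodenum. On dextrose 7 fell and 0 rose, with a list median log2 fold change of -0.86, and on fructose 6 fell and 1 rose, with a median of -0.56; the median over all genes was -0.01 and -0.02, and 1.09% and 2.70% of all genes fell. Without the libraries that stood apart 4 fell on dextrose and 3 on fructose, where 1.15% and 2.32% of all genes passed in either direction. The steepest was Gstm1, a glutathione transferase, with 90.0 to 431 CPM on control, 16.0 to 30.01 on dextrose and 30.1 to 54.2 on fructose (adjusted p of 0.00130 and 0.00474 against control); its 2 highest controls were libraries 1 and 2. Nqo1, a quinone reductase, fell by 1.45 ± 0.17 and 0.65 ± 0.17 on the log2 scale (adjusted p of 2.48e-04 and 0.0262). The exporter of conjugates Abcc2 fell by 1.04 ± 0.21 and 0.79 ± 0.21 (adjusted p of 0.0113 and 0.0281). The gene that rose on fructose was Tiparp, an Ahr target, by 0.40 ± 0.11 (adjusted p = 0.0368), a call lost without the libraries that stood apart (adjusted p = 0.289).

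Of 16 receptors and factors that regulate P450 genes, 14 were tested in duodenum. On fructose 3 rose (4.01% of all genes did) and on dextrose 0 (1.15% of all genes). The 3 were Nr0b2, a repressor induced by bile acids, by 1.02 ± 0.20 (adjusted p = 0.00465), Nr1h4, the bile acid receptor FXR, by 0.82 ± 0.22 (adjusted p = 0.0394), and Nfe2l2 (NRF2) by 0.55 ± 0.12 (adjusted p = 0.00676), all in log2. Without the libraries that stood apart Nr0b2 alone passed. Of 10 genes of haem synthesis and breakdown, Blvrb fell on fructose by 0.46 ± 0.13 (adjusted p = 0.0407), where 2.70% of all genes fell. The call was lost without the libraries that stood apart (adjusted p = 0.316). On dextrose 0 of these genes passed, against 2.25% of all genes. In liver 0 genes of the 4 lists passed in any diet comparison by edgeR; without the libraries that stood apart the carboxylesterase Ces2a fell on fructose against control by 0.54 ± 0.13 on the log2 scale (adjusted p = 0.0403).

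In liver the diets changed none of the 35 members tested past the threshold. By edgeR 0 passed with fructose against control (0.258% of all 13178 genes did), 0 with dextrose against control (0.0%) and 0 with fructose against dextrose (0.0759%). At an unadjusted p under 0.05 the counts were 6, 1 and 6 of 35, against 1545, 554 and 1245 of all 13178 genes. DESeq2 called 1, 0 and 1; the gene was Cyp2a5 in both. Median log2 fold changes of the 35 were -0.25, -0.01 and -0.23, against -0.03, 0.01 and -0.03 over all genes tested. The 11 members under the filter included Cyp3a44, Cyp2a4 and Cyp2b10.

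Cyp2a5, the coumarin 7-hydroxylase, had 142, 179, 165, 128 and 286 CPM on control, 219.5, 229.7, 80.1, 237 and 190.4 on dextrose, and 58.3, 63.5, 43.4, 93.8 and 113 on fructose. All fructose libraries were below all controls and below 4 of the 5 dextrose libraries. Its log2 fold change was -1.27 ± 0.31 against control (edgeR adjusted p = 0.130) and -1.36 ± 0.32 against dextrose (adjusted p = 0.111), and without the libraries that stood apart -1.28 ± 0.36 (adjusted p = 0.0983) and -1.35 ± 0.36 (adjusted p = 0.0916). It shares 28.1% of its windows with Cyp2a4.

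In liver, 2 libraries held another P450 profile. Set against the median of the other 4 libraries of their group, 16 of 38 members with at least 1 CPM in either were at least 2-fold lower in control 2 and 9 at least 2-fold higher; in dextrose 5 these were 16 and 10 of 37. Of all genes 6.52% were as much lower and 12.6% as much higher in control 2, and 5.65% and 15.1% in dextrose 5. The same 14 members were lower in both and the same 9 higher in both, and 0 went in opposite directions. The libraries come from different diet groups. Lower in both were Cyp1a2, Cyp2c29, Cyp2c37, Cyp2c40, Cyp2c50, Cyp2c54, Cyp2c67, Cyp2c69, Cyp2d10, Cyp2d22, Cyp2d40, Cyp2d9, Cyp2e1 and Cyp2u1. Higher in both were Cyp1b1, Cyp2a22, Cyp2a4, Cyp2b10, Cyp2b9, Cyp2c38, Cyp2c55, Cyp3a11 and Cyp3a59. Of these, Cyp1b1, Cyp2a22, Cyp2a4, Cyp2b10 and Cyp2b9 had medians under 1 CPM in the other 4 libraries of both groups. They met the minimum of 1 CPM only through the 2 libraries in which they were high, so they could not have counted as lower. The 2 libraries were noticed for their values, so these counts are a description.

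**Figure D4:**
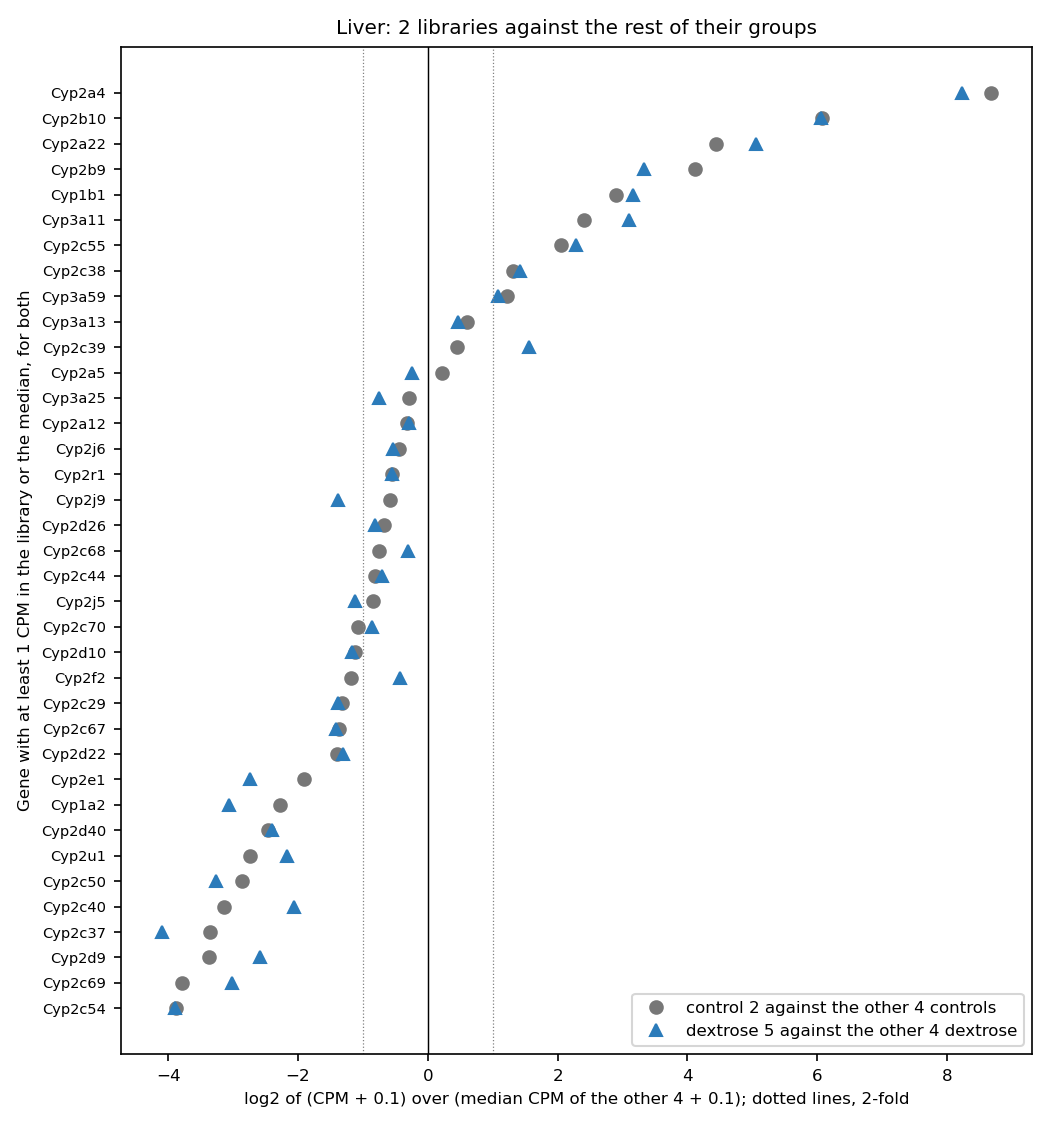
Log2 ratio of each gene's CPM in liver control 2 (circles) and liver dextrose 5 (triangles) to the median of the other 4 libraries of the same group, with 0.1 CPM added to both, for the 37 genes with at least 1 CPM in the library or the median in both comparisons. Dotted lines mark 2-fold; 9 genes lie beyond the right line and 14 beyond the left line in both libraries.

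Cyp2e1 had 4401, 1381, 6253, 5921 and 4220.5 CPM in control liver, 5451, 6468, 4154, 5521 and 819 on dextrose, and 3058, 2914, 2566, 3712 and 4227 on fructose. Control 2 and dextrose 5 were the 2 lowest of the 15 libraries. Cyp2d9 had 1017, 120.0, 1469, 1458 and 715 CPM on control, 1036, 1091, 914, 1299 and 177 on dextrose, and 943, 1121, 854, 816 and 1024 on fructose. Cyp1a2 had 70.5 CPM in control 2 and 49.8 in dextrose 5, and 206 to 488 in the other 13 libraries. Cyp2c54 had 9.83 and 8.25 CPM there and 52.3 to 214 elsewhere. All 4 were thus lower in these 2 libraries than in any other liver library.

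In the other direction, Cyp2a4, a steroid 15-alpha hydroxylase, had 115 CPM in control 2 and 69.1 in dextrose 5, and at most 0.565 in the other 13 libraries. Cyp2a5 was at 179 and 190.4 CPM in the same 2 libraries, within the range of their groups. Cyp2b10 had 6.59 and 6.57 CPM there and at most 0.121 elsewhere. Cyp3a11 had 713, 3180.1, 531, 672 and 494 CPM on control, 225, 319, 329.9, 322 and 2758 on dextrose, and 532, 509, 352, 518 and 605 on fructose. Its 2 highest libraries were again control 2 and dextrose 5.

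**Figure D5:**
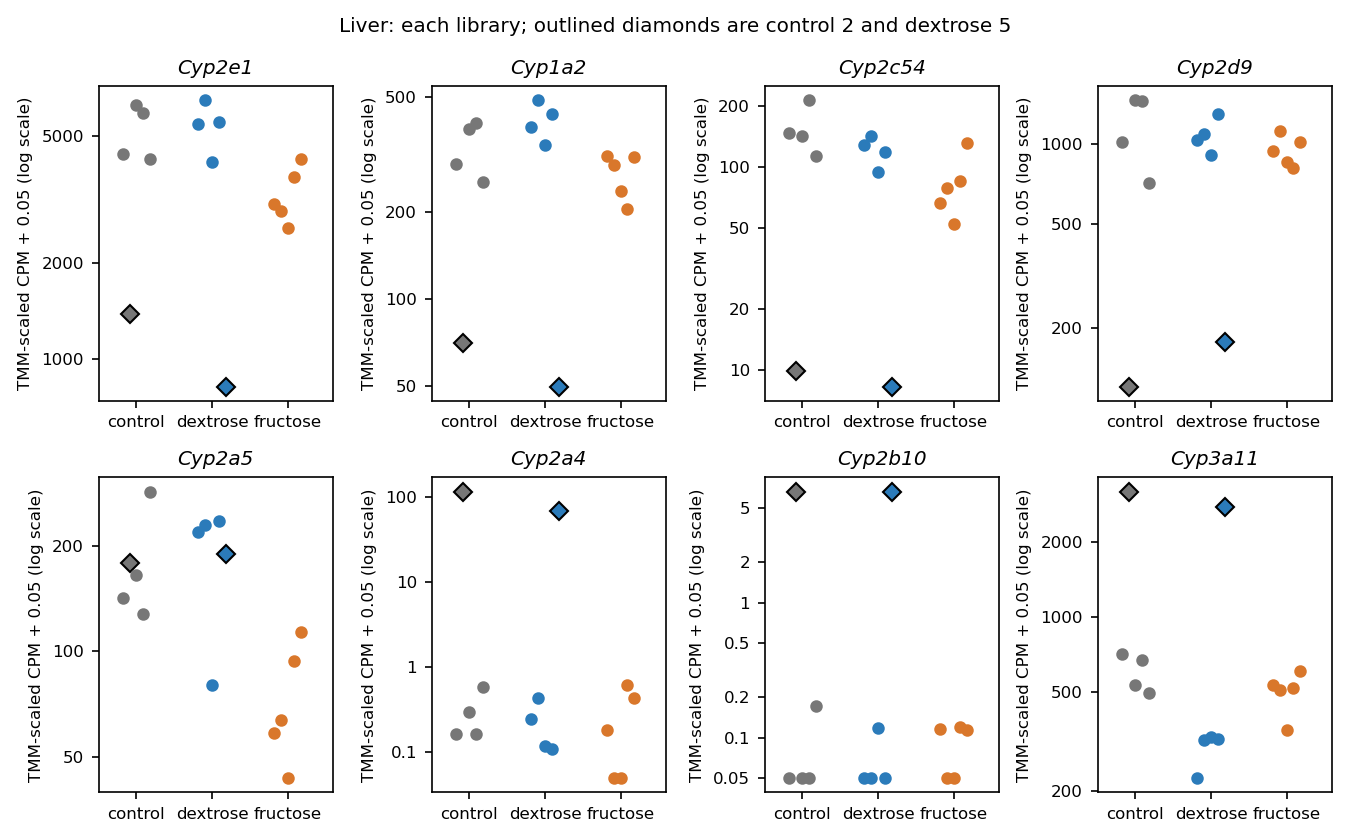
TMM-scaled CPM plus 0.05 (log axes) of 8 genes in each liver library by diet; outlined diamonds are control 2 and dextrose 5. The diamonds are lowest for Cyp2e1, Cyp1a2, Cyp2c54 and Cyp2d9, highest for Cyp2a4, Cyp2b10 and Cyp3a11, and within the group for Cyp2a5.

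Other genes moved with these 2 libraries. All 6 pericentral hepatocyte genes that are not P450s were the lowest of their group in both, with sums of 1383 and 1266 CPM against 2597 or more in the other 13 liver libraries, whereas of 6 periportal genes 2 were lowest of the group in each and 3 were highest in dextrose 5. The cell cycle gene Mki67 was at 25.5 and 27.0 CPM, against at most 1.71 elsewhere, and the glutathione transferase Gsta1 at 97.0 and 55.3 CPM, against at most 1.51. Of the 8 hepatocyte genes 3 were lowest of the group in control 2 and 6 in dextrose 5, and 0 were at 0. In dextrose 5 pancreatic acinar genes summed to 914 CPM, with 7 of 8 highest of the group, and in control 2 to 181 CPM, with none highest. These sums also reached 328 CPM in control 5 and 167 in dextrose 4, which were kept in all fits without the libraries that stood apart. Enterocyte genes summed to 1494 and 1162 CPM in control 2 and dextrose 5, against at most 975 elsewhere in liver. Of these 7 genes only 1 was highest of the group in each library, and 3 were lowest in dextrose 5. Goblet genes summed to 68.3 and 146 CPM in control 2 and dextrose 5, against at most 45.0. Of these 4 genes 3 were highest of the group in control 2 and 2 in dextrose 5, and Muc2 was at 0 in both. All 5 T and NK cell genes were highest of the group in dextrose 5, with a sum of 5.36 CPM, and 2 of 5 were in control 2. The TMM factors of the 2 libraries were 1.24 and 1.21, against 0.911 to 1.01 in the other liver libraries. Reads of the Y-linked genes Ddx3y and Eif2s3y were present in all 30 libraries, at 419 or more. The part of any of these in the P450 profile was not tested.

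Without these 2 libraries 36 members were tested. By edgeR 0 passed with fructose against control, where 1.72% of all 13107 genes did, and 0 with dextrose against control, where 0.0% did. At an unadjusted p under 0.05 there were 14 and 4 of the 36 members, against 2333 and 1393 of all 13107 genes. With fructose against dextrose 4 passed, against 1.91% of all genes: Cyp3a11 was higher on fructose by 0.76 ± 0.17 in log2 (adjusted p = 0.0276), and Cyp2c44 fell by 0.74 ± 0.18, Cyp2e1 by 0.70 ± 0.17 and Cyp2c70 by 0.61 ± 0.15 (adjusted p of 0.0433, 0.0494 and 0.0466). Cyp2c44, an arachidonic acid epoxygenase named Cyp2c23 in RefSeq, had 352, 458, 414 and 345 CPM in the first 4 dextrose libraries and 251, 215, 189, 201 and 309.6 on fructose, with no overlap. Cyp2c70 had 495, 479, 636 and 528 CPM in these dextrose libraries and 383, 399, 354, 292 and 303 on fructose, with no overlap. With all 15 libraries the values of these 4 genes were -0.65 ± 0.72, -0.63 ± 0.23, -0.44 ± 0.44 and -0.48 ± 0.24 in the same order, so that the direction of Cyp3a11 turned.

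Whether a diet effect differed between the tissues was tested over all 30 libraries. For fructose 1 of 39 members passed (edgeR, 1.08% of all 15268 genes), and for dextrose 0 of 39 (0.118% of all genes). For dextrose 4 members had an unadjusted p under 0.05, against 1001 of all 15268 genes, and DESeq2 called 2 members. The gene that passed for fructose was Cyp3a44, with a difference of -4.54 ± 1.00 in log2, liver effect minus duodenum effect (adjusted p = 0.0187). In liver it had 10 reads in control 2, 11 in dextrose 5 and 0 to 3 in each of the other 13 libraries, so the liver side of this difference rests on very few reads. Without liver control 2 the difference was -3.49 (adjusted p = 0.228), and without all libraries that stood apart -3.63 ± 0.95 (adjusted p = 0.0649). In that last fit Cyp2d22 passed instead, at -0.79 ± 0.19 (adjusted p = 0.0378; 2.50% of 40 members and 1.02% of all genes called); with all libraries its value was -0.65 ± 0.30 (adjusted p = 0.345).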

How the data were processed

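RNA-seq reads were processed by the authors with TopHat2 2.0.12, Bowtie2 2.2.3, HTSeq 0.6.1 and DESeq 1.18.0, per the submitters' processing notes; libraries were poly(A)-selected and made with a NEBNext Ultra kit, per the labels' protocols. The genome build, the annotation and whether counting used strand are not given in the sources used here. The deposited table holds raw read counts per gene. It also holds FPKM deposited by the authors, which equalled count over length and library total within 0.001 for 100% of values.

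The counts were tested with edgeR 4.0.16 in R 4.3.3: its low-count filter, TMM factors and the robust quasi-likelihood F test, two-sided. The p-values were adjusted by Benjamini-Hochberg across every gene in the fit, with a threshold of 0.05. Each tissue was fitted alone with its 15 libraries, and differences between tissues in a fit of all 30. The test was first tried on simulated counts. Fold changes are log2 ± SE, the SE being the absolute log2 fold change over the square root of the F statistic. DESeq2 1.42.0, limma 3.58.1 on log2(FPKM + 1), other scalings and filters, a replicate block and libraries left out were the alternatives. Named were up to 8 called members per comparison and the 6 highest in FPKM per tissue; other genes named were chosen after their values were seen. Leaving out the 5 libraries that stood apart was also chosen after seeing the data. The members and gene lists were chosen with earlier results of these data known. Promoter sequences are from RefSeq.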

Additional observations from a re-analysis of the deposited data

Results flagged for a closer look

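In groups of 5 libraries, 57 combinations of gene and group were examined for a single library far from the other 4, and 6 had one. All 6 were in liver control 2 or liver dextrose 5. Chance alone marks about 1 in 20 such groups, but some of these genes were shown because of their values in these 2 libraries, so the number of marks is a description and no test. Cyp3a11 was at 3180.1 CPM in control 2, where the remaining controls had 494 to 713, and at 2758 CPM in dextrose 5, against 225 to 329.9 in the other dextrose libraries. Cyp2a4 was at 115 CPM in control 2 and 69.1 CPM in dextrose 5, against at most 0.544 and 0.391 in the others of each group. Cyp2b10 was at 6.59 CPM and 6.57 CPM, against at most 0.121 and 0.0676.

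The fructose effect on Cyp3a44 differed between the tissues by -4.54 in log2, liver minus duodenum, in a test of the difference itself (edgeR adjusted p = 0.0187), with few reads in liver.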

How the results depend on the processing

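The number of P450 genes called changed by more than 1.5 times as follows. Without the libraries that stood apart it was 3 in duodenum for fructose against control, 1 for dextrose against control, and 4 in liver for fructose against dextrose. DESeq2 called 4 for dextrose against control in duodenum, 1 in liver for fructose against control, 1 for fructose against dextrose, and 2 for each difference between tissues. With no filter on low counts 1 was called for dextrose against control in duodenum. With limma on FPKM the differences between tissues gave 2 for fructose and 1 for dextrose. With 1 library left out the counts ran from 1 to 3 for dextrose against control in duodenum, and from 0 to 2 and 0 to 1 for the fructose and dextrose differences between tissues. All other counts stayed within 1.5 times, among them 3 to 6 for fructose against dextrose in duodenum with 1 library left out. The cause of these changes was not tested.

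No gene called with all libraries changed direction; those that turned were log2 fold changes near 0 or of genes that differed in liver control 2 and dextrose 5. For fructose against dextrose in duodenum, Cyp2d26 gave -0.00145 with limma and Cyp3a25 -0.012 with upper-quartile factors and -0.025 with limma. For fructose against control in liver, Cyp2d9 gave 0.0053 with no filter, 0.36 with limma and 0.17 with a replicate block. For dextrose against control in liver, Cyp2e1 gave -0.013 with upper-quartile factors and -0.084 with limma, Cyp2f2 -0.021 with upper-quartile factors and -0.11 without the libraries that stood apart, Cyp2d9 0.087 with limma, and Cyp2d26 0.0047 with no filter, 0.024 with limma and 0.0067 with a replicate block. For fructose against dextrose in liver, Cyp2d9 gave -0.17 without the libraries that stood apart, and Cyp3a11 0.043 with limma and 0.76 without those libraries. With 1 library left out, the ranges that crossed 0 in duodenum were -0.066 to 0.14 for Cyp3a13 (dextrose against control), -0.0025 to 0.11 for Cyp2d26 and -0.046 to 0.15 for Cyp3a25 (both fructose against dextrose). In liver they were, for dextrose against control, -0.12 to 0.13 for Cyp2d26, -0.36 to 0.19 for Cyp2d9, -0.21 to 0.29 for Cyp2e1, -0.16 to 0.13 for Cyp2f2 and -1.90 to 0.39 for Cyp3a11; for fructose against control, -0.17 to 0.055 for Cyp2d26 and -0.29 to 0.20 for Cyp2d9; and for fructose against dextrose, -0.19 to 0.00015 for Cyp2d26, -0.19 to 0.24 for Cyp2d9 and -0.86 to 0.755 for Cyp3a11.

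Libraries of different groups share numbers, and the labels do not say what a number stands for. For that reason the numbers were not taken to pair the libraries. At most 3 of 5 libraries correlated best with their own number in any pair of groups. Between duodenum and liver of the same diet 3 of 5 did on fructose, 3 on dextrose and 2 on control. In the other pairs of groups it was 0 to 2. A shared mouse between the 2 tissues of a diet is therefore not excluded. The tests between tissues treat all libraries as independent. The replicate block joined libraries of the same number over all groups in a fit. It therefore does not model a mouse shared by the 2 tissues of a diet. With the replicate block 5, 2 and 3 genes were called in duodenum, 0 in each liver comparison, 1 and 0 for the differences between tissues and 35 between tissues on the control diet. One read is worth at least 0.0504 CPM before scaling, and 0.0420 CPM after TMM scaling in liver control 2. Levels under 1 read in a library could not be measured.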
